A study of Rattus norvegicus with 69 samples.

Results

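The proteasome is the protease complex that degrades ubiquitin-tagged proteins. Its 20S core is a barrel of alpha rings (Psma genes), which gate the entry, and beta rings (Psmb genes), which carry the proteolytic sites. The 19S cap, made of a ring of ATPases (Psmc genes) and of non-ATPase subunits (most Psmd genes), recognises, unfolds and feeds the substrate, activators (Psme) and an inhibitor (Psmf1) bind the ends of the core, and assembly chaperones (Psmg genes, Psmd5, Psmd10) help to build it. In blood the complex is known from reticulocytes, whose lysates were used to work out ubiquitin-dependent degradation, and from leukocytes, where interferon-inducible beta subunits shape the peptides presented on MHC class I.

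The proteasome subunit and regulator genes were taken as all probe sets annotated to exactly 1 symbol that starts with Psma, Psmb, Psmc, Psmd, Psme, Psmf or Psmg and a digit, without the immunoproteasome genes Psmb8 and Psmb9. This gave 44 probe sets and, with the probe set of highest mean kept for each gene, 43 genes of the 14557 genes with 1 symbol on the array. By role they were 5 alpha ring genes with the testis form Psma8, 7 beta ring genes with the immunoproteasome form Psmb10 and the thymus form Psmb11, 3 chaperones of 20S assembly, 5 ATPases and 9 non-ATPase subunits of the 19S cap, 2 chaperones of 19S assembly, the activators Psme1 and Psme4, and the inhibitor Psmf1. The letters of the rule also took in 4 copies or pseudogenes (Psma6-ps1, Psmb3l2, Psmb6l1, Psmd1-ps1) and 2 proteins that are not subunits (Psmc3ip, Psme3ip1). A further 5 proteasome probe sets carry several symbols and were not used, and Psma2, Psma3, Psmc3, Psmd3, Psmd4, Psmd9, Psme2, Psme3 and Psmg1 were not analysed here.

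The RNA came from whole blood of male Sprague-Dawley rats, 9 weeks old, that inhaled printer-emitted particles (PEPs) with their gases, or HEPA-filtered air, for 5 hours per day. There were 69 Affymetrix Rat Gene ST arrays in 14 groups, 34 from air and 35 from exposed rats. Groups were made by arm and by day of exposure, with 5 arrays in each arm on day 1 and on days 5, 9 and 13, 4 air and 5 exposed arrays on day 17 and 6 in each arm on day 21. On day 21, 4 air and 4 exposed rats that carried a telemetry implant form groups of their own. The labels do not say which arrays belong to which run of the exposure, so run and group cannot be told apart. In whole blood, fewer cells of a type and less RNA per cell cannot be told apart.

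Values are log2 intensities after robust multi-array averaging (RMA), and a difference of 1 is a doubling. Array medians lay between 2.44 and 2.78 and correlations between arrays between 0.897 and 0.974. Markers of blood cells had array means of 10.18 to 11.54 for the 3 measured erythroid genes (Slc4a1, Epb42, Slc25a37), 6.94 to 8.23 for 8 T cell genes and 4.57 to 7.46 for 7 neutrophil genes. Those of 3 lung genes were 1.11 to 2.19. The fit gave 4 arrays a weight under 0.5 (air day 1 replicate 2, air day 13 replicate 1, exposed day 1 replicate 5, exposed day 5 replicate 1).

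Several probe sets were near background. Psmb3l2 had a mean of 1.04 and lay under the lower quartile of its own array on 62 of 69 arrays, Psma6-ps1 had 1.28 (55 arrays), Psma8 1.44 (46 arrays) and Psmg3 1.60 (25 arrays). The thymus form Psmb11 had a mean of 2.23 and the beta ring gene Psmb3 2.87. Probe sets differ in affinity, so levels of different genes were not set against each other. A variance filter of 0.05 left 38 of the 43 genes for testing, and Psmd2, Psmd11 and Psmd13 of the 19S cap, the activator Psme4 and the pseudogene Psmd1-ps1 fell below it. Their SD over all arrays was at most 0.207.

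The regions around the start sites of 5 genes are shown because these genes carry the changes over days described further on, Psmd8, Psma6, Psmb6 and Psmb6l1 with falls and Psmd1 with a rise. Each window runs from 250 bases before to 50 bases after the start in the RefSeq annotation of build GRCr8, 5′ to 3′ on the strand of the gene. Capitals in Psmd1 and Psmb6 mark matches to TGACNNNGC, the core of the antioxidant response element through which the factors Nfe2l1 and Nfe2l2 are known to act on proteasome genes. Capitals in Psmb6l1 mark the longest run, 29 bases, that its window shares with that of Psmb6.
Psmd8 (chr1:93608640-93608939, minus strand): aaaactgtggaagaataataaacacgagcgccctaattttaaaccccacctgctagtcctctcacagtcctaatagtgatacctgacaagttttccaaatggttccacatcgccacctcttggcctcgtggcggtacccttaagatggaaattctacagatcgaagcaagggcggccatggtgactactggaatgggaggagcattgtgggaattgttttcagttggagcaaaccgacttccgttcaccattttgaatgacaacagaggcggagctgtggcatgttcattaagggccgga
Psma6 (chr6:78514097-78514396, plus strand): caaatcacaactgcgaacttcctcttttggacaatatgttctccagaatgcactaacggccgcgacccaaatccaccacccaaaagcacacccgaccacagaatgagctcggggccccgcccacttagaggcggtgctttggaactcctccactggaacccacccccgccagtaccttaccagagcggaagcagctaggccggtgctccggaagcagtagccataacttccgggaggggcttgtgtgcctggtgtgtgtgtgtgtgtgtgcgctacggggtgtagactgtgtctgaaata
Psmb6 (chr10:55737638-55737937, plus strand): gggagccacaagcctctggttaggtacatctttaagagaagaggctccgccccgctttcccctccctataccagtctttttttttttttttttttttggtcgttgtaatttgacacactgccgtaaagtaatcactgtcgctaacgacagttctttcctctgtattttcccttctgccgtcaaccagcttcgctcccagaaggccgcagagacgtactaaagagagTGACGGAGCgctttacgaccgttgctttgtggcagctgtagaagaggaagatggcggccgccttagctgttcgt
Psmb6l1 (chr2:95741897-95742196, minus strand): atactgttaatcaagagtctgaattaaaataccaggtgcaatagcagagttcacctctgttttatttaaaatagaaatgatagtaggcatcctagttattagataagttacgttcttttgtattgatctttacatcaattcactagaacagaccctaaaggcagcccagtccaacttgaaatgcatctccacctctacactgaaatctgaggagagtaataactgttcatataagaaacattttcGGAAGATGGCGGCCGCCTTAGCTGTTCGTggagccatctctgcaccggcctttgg
Psmd1 (chr9:94157721-94158020, plus strand): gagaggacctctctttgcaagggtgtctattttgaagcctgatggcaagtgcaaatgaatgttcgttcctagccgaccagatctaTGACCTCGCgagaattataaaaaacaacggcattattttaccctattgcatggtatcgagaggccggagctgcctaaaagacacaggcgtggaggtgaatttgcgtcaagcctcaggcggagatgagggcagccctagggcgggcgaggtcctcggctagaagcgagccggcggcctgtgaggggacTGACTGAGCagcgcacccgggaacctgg

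A RefSeq window was found for 35 of the 43 genes. The core TGACNNNGC, searched on both strands, occurred in 5 of them (Psmb2, Psmb5, Psmb6, Psmd1 and Psme4), or 14.3%, against 12.2% of 27457 windows of the same 300 bases. CCAAT, the box bound by the factor NF-Y, occurred in 15 (42.9%) against 37.7% of all windows. In Psmb2 a CCAAT and a TGACNNNGC match overlapped, at -72 to -68 and at -68 to -60 from the start. Neither was found in the windows of Psmd8, Psma6 or Psmb6l1. The shared run lies at bases 22 to 50 after the start of Psmb6, up to the end of the window, and at -5 to 24 around that of Psmb6l1. Psmb6l1 is a near copy of Psmb6, so its probe set may also take up Psmb6 RNA and the values of both are uncertain in that respect.

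Exposed rats were first compared with air rats of the same day. No proteasome gene passed an adjusted p of 0.05 in limma on any day, in the telemetry rats, in the mean of the 6 days or in the test of a difference between days. Differences were small in most genes: of the 38 tested, only Psma6-ps1 on day 1 reached the 1.5-fold change used in the study, as 7.41% of all probe sets did that day. The same test passed 0% of all 34176 tested probe sets on days 1, 5, 17 and 21 and 0.00585% on days 9 and 13. Median differences of the 38 genes ran from -0.05 on day 1 to 0.10 on days 9 and 17, beside medians of all probe sets between -0.01 and 0.01.

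**Figure D1:**
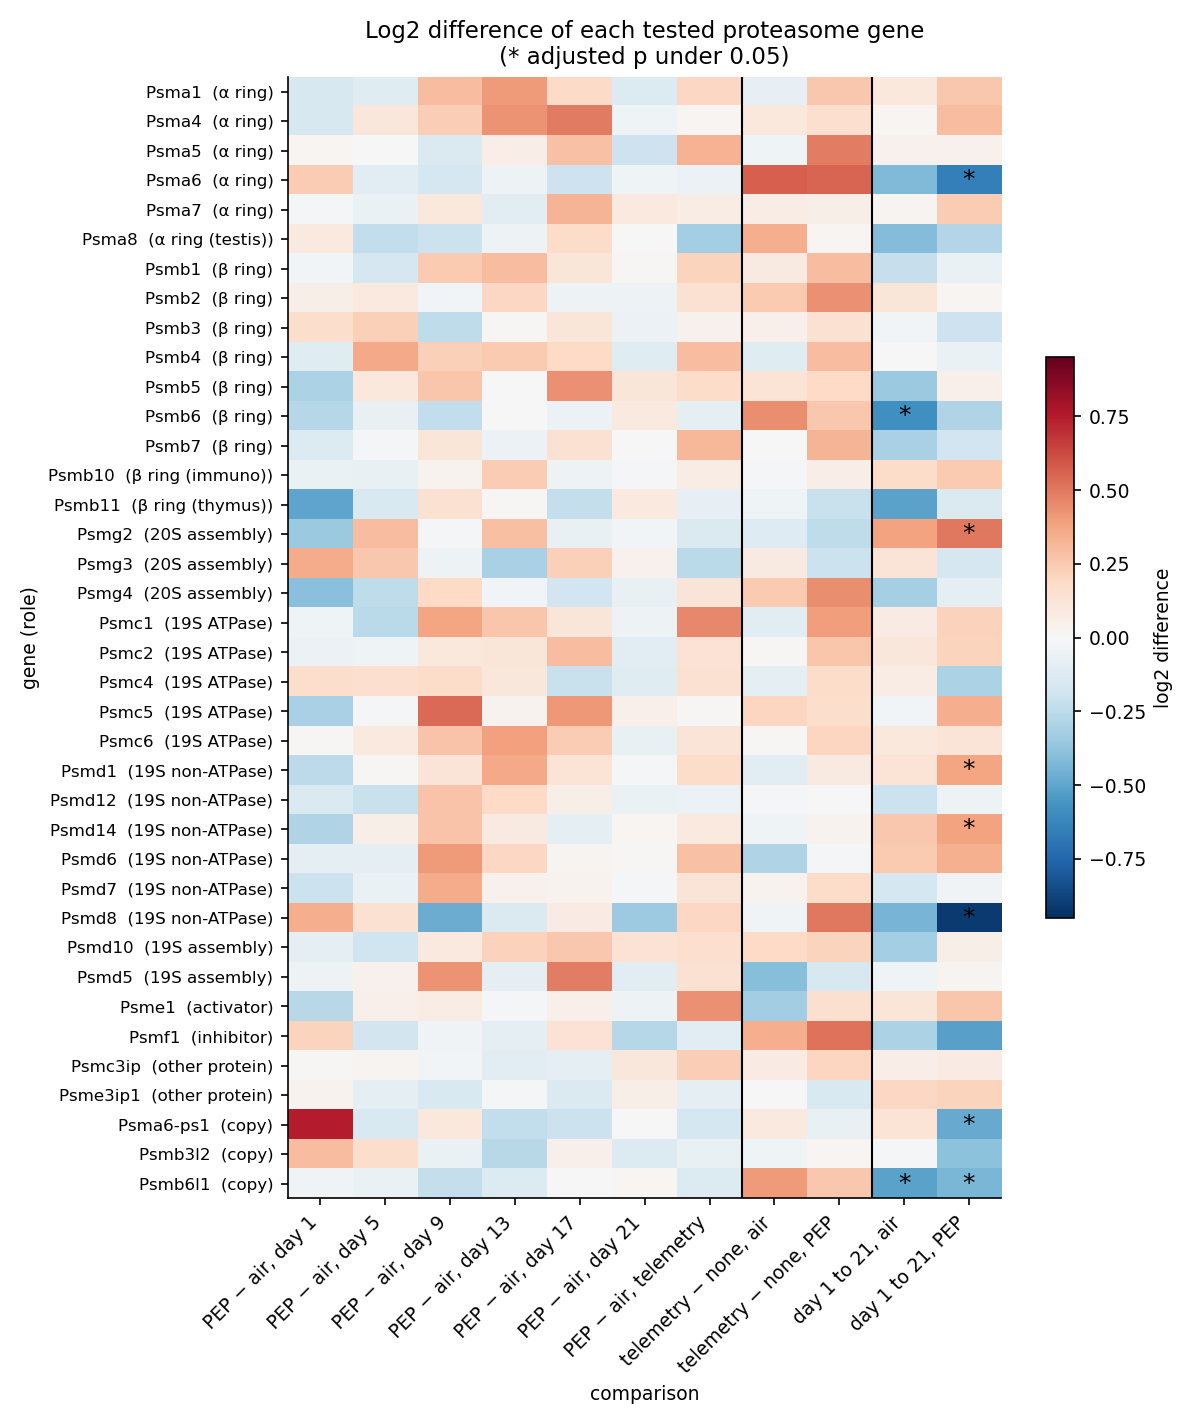
Log2 differences of the 38 tested proteasome genes (rows, with their role) in 11 comparisons (columns); red is higher in the first-named group or on later days, blue is lower, and a star marks an adjusted p under 0.05. Stars appear only in the columns of the change from day 1 to day 21, on Psmb6 and Psmb6l1 in air and on 7 genes in exposed rats.

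On day 1, 14 of the 38 genes were higher in exposed rats (52.1% of all probe sets were) and 24 lower, and 2 had an unadjusted p under 0.05, beside 6.59% of all probe sets. The pseudogene Psma6-ps1 had values of 1.12, 1.81, 2.51, 2.66 and 1.28 in exposed rats and of 1.09, 1.82, 1.44, 0.92 and 1.09 in air (difference 0.75 ± 0.21 SE, adjusted p = 0.574). Only exposed replicates 3 and 4 exceeded all air arrays, and the probe set is near background. Psmb11, the beta subunit of thymic epithelium, had 2.24, 2.87, 2.34, 1.96 and 2.26 in exposed rats against 2.73, 2.60, 3.08, 2.77 and 2.82 in air (-0.50 ± 0.23 SE, adjusted p = 0.722). All but exposed replicate 2 lay under the air arrays.

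Day 5 had 1 gene with an unadjusted p under 0.05 (5.61% of all probe sets). Psmb4, a beta ring subunit without proteolytic activity of its own, had 6.32, 6.77, 6.67, 6.66 and 6.42 in exposed rats against 6.01, 6.16, 6.04, 6.43 and 6.66 in air (0.36 ± 0.17 SE, adjusted p = 0.85). Psmc1, a 19S ATPase, went the other way, at 5.22, 5.35, 5.47, 5.58 and 5.37 against 5.48, 5.53, 5.81, 5.64 and 6.01 (-0.26 ± 0.17 SE, adjusted p = 0.94). The arms overlapped in both genes.

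On day 9, all 5 ATPases and 5 of 6 tested non-ATPase subunits of the 19S cap had higher values in exposed rats, with medians of 0.27 for either class, and 24 of the 38 genes were higher beside 48.9% of all probe sets. Unadjusted p under 0.05 was reached by 5 genes, 4 of them higher (7.12% of all probe sets). The ATPase Psmc5 had 4.74, 5.06, 5.16, 5.07 and 5.54 in exposed rats against 3.70, 4.77, 4.65, 4.89 and 4.58 in air (0.54 ± 0.18 SE, adjusted p = 0.46). Air replicate 1 stood well below the rest, and without it the difference was 0.42 (adjusted p = 0.688). Psmd7, the scaffold partner of the 19S deubiquitinase, had 6.47, 6.42, 6.65, 6.30 and 6.27 against 6.30, 6.29, 6.06, 6.08 and 5.61 (0.35 ± 0.15 SE, adjusted p = 0.614). In 1 gene, Psmc1, every exposed array lay above every air array, as in 0.723% of all probe sets.

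On day 13 the median difference was 0.02 and 5 genes, all higher, had an unadjusted p under 0.05 (7.7% of all probe sets in either direction). Psmd1, a large scaffold subunit of the 19S base, had 6.56, 6.82, 6.94, 6.92 and 6.70 in exposed rats against 5.75, 6.61, 6.65, 6.51 and 6.23 in air (0.36 ± 0.11 SE, adjusted p = 0.372). The alpha ring gene Psma4 had 5.99, 6.53, 6.70, 6.50 and 6.51 against 5.06, 6.32, 6.12, 6.33 and 5.82 (0.42 ± 0.16 SE, adjusted p = 0.468). In both genes air replicate 1, an array of weight 0.246, was the lowest of all. The arms did not overlap in Psmb3l2, which was lower in every exposed array, as 0.559% of all probe sets were.

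On day 17, 26 of the 38 genes were higher in exposed rats (49.7% of all probe sets were), and 6 genes, all higher, had an unadjusted p under 0.05 (4.88%). Psma4 had 6.40, 6.35, 6.35, 6.68 and 6.96 in exposed rats against 6.30, 5.94, 6.07 and 5.997 in air (0.50 ± 0.17 SE, adjusted p = 0.894). Psmb5, the subunit with chymotrypsin-like activity, had 4.25, 4.38, 4.35, 4.38 and 4.39 against 4.03, 3.31, 3.98 and 4.15 (0.43 ± 0.18 SE, adjusted p = 1). The arms did not overlap in either gene, nor in the 19S assembly chaperone Psmd5, and all 3 were higher in exposed rats, as 0.568% of all probe sets were.

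On day 21, 13 of the 38 genes were higher in exposed rats (49.5% of all probe sets were) and 25 lower, and none had an unadjusted p under 0.05 (4.96% of all probe sets). Psmd8, a non-ATPase subunit of the 19S lid, had a lowest, median and highest value of 4.40, 4.73 and 5.00 in 6 exposed rats and of 4.58, 5.02 and 5.49 in 6 air rats (-0.34 ± 0.17 SE, adjusted p = 1). Psmf1, the inhibitor also called PI31, had 9.30, 9.54 and 9.93 against 9.35, 9.81 and 10.17 (-0.27 ± 0.18 SE, adjusted p = 1). Both ranges overlapped widely.

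In the rats with implants, 26 of the 38 genes were higher after exposure (50.6% of all probe sets), with a median of 0.12, and none passed (0.00585% of all), with 2 at an unadjusted p under 0.05 (5.33%). Psmc1 had 6.14, 5.66, 6.12 and 5.73 in exposed rats against 5.72, 5.31, 5.59 and 5.37 in air (0.46 ± 0.16 SE, adjusted p = 0.798). Psmb7, the subunit with trypsin-like activity, had 7.17, 7.26, 7.57 and 7.10 against 7.11, 6.96, 6.82 and 7.01 (0.32 ± 0.13 SE, adjusted p = 0.854). Each gene had 1 or more exposed arrays within the air range. The arms did not overlap in Psmb2, with 7.40 to 7.47 against 7.24 to 7.39 (0.14, adjusted p = 1), as in 1.38% of all probe sets that were higher.

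Averaged over the 6 days, 27 of the 38 genes were higher in exposed rats, beside 50.7% of all probe sets, and the median was 0.03. None passed (0% of all), and 3 genes had an unadjusted p under 0.05 (6.17%). Psma4 led with 0.18 ± 0.07 SE (adjusted p = 0.727), followed by the ATPase Psmc6 with 0.16 ± 0.07 SE (adjusted p = 0.764). The 5 ATPases lay between 0.05 and 0.16. The exposure effect was not shown to differ between days in any gene (0% of all probe sets), with 4 genes at an unadjusted p under 0.05 (7.02%). Psma6-ps1 (adjusted p = 0.604) and Psmc5 (adjusted p = 0.621) came first, the genes that led on days 1 and 9.

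The levels were next followed over days within each arm. The change over days was fitted as a straight line through the 6 day means, and its value is the log2 change from day 1 to day 21. In air, 2 of 38 genes passed, both lower on later days, beside 4.84% of all probe sets (2.33% lower). In exposed rats 7 passed, 4 lower and 3 higher, beside 15.2% of all probe sets (6.41% lower, 8.82% higher). After cyclic loess scaling of the arrays 4 genes passed in air, all lower, beside 1112 of all probe sets in either direction. In exposed rats 6 then passed as lower and 0 as higher. There the 3 rises and the fall of Psma6-ps1 lost their calls. Psmd8, Psma6 and Psmb6l1 kept theirs, and Psmb6, Psmb7 and Psmc4 joined them.

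**Figure D2:**
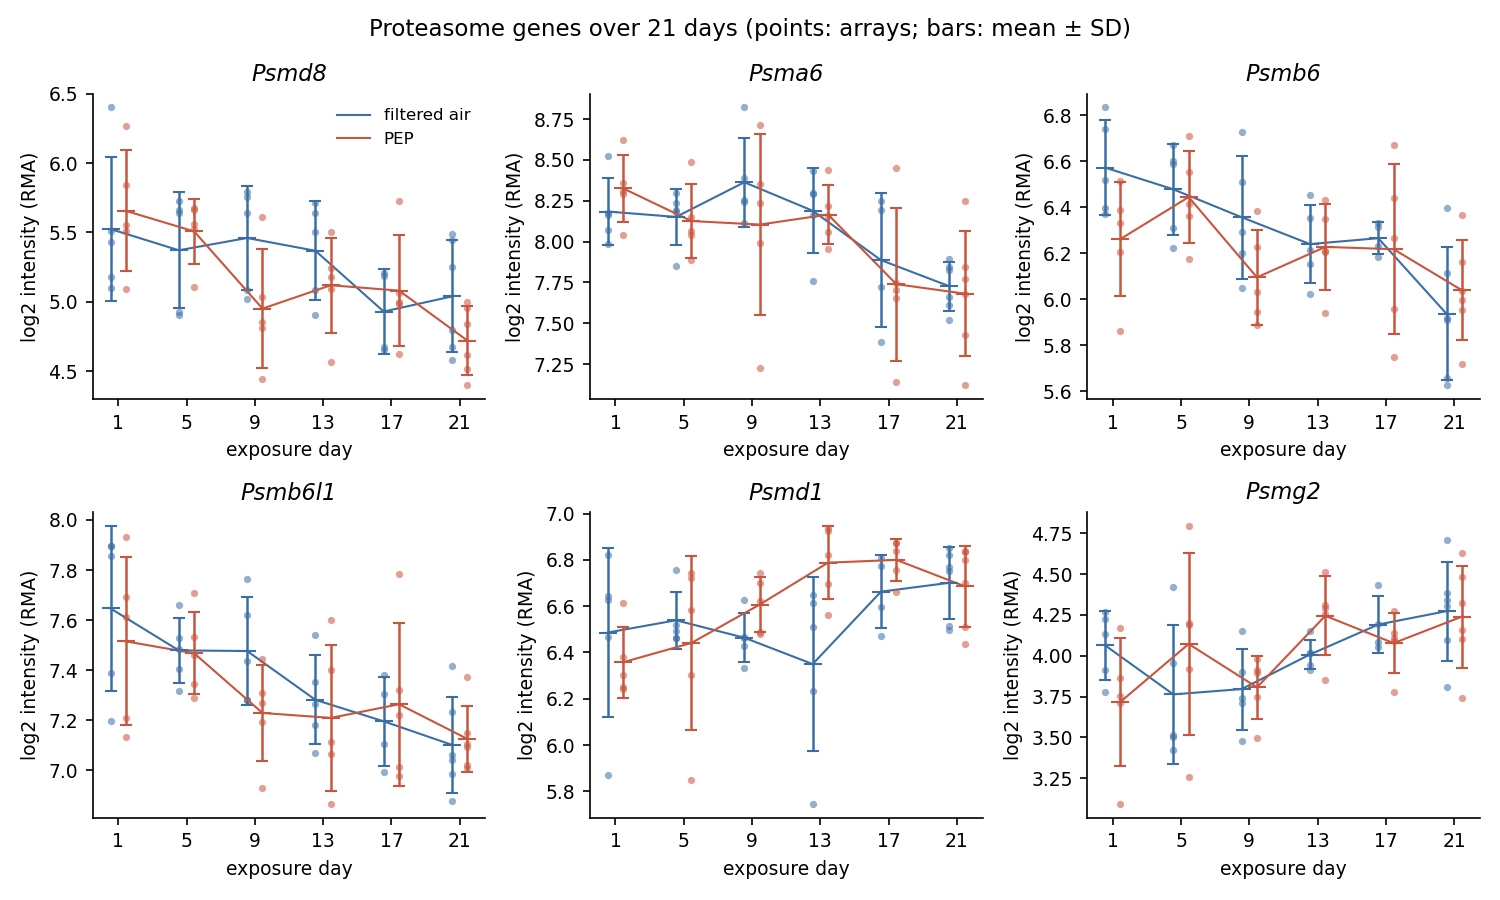
Log2 intensity of 6 genes on 6 days in air (blue) and exposed rats (red); points are arrays, and bars are the mean and SD of 4 to 6 arrays. Psmd8, Psma6, Psmb6 and Psmb6l1 have lower means on day 21 than on day 1 in both arms (5.66 and 4.72 for Psmd8 in exposed rats), while Psmd1 and Psmg2 end higher than they began.

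Psmd8 fell furthest of the 38 genes in exposed rats. Its values were 5.56, 6.27, 5.84, 5.51 and 5.09 on day 1, 5.68, 5.56, 5.11, 5.66 and 5.53 on day 5, and 4.85, 4.81, 5.61, 4.44 and 5.03 on day 9. On later days they were 5.25, 5.18, 5.50, 5.10 and 4.57 (day 13), 4.99, 5.07, 5.73, 4.62 and 5.00 (day 17) and 4.40 to 5.00 with a median of 4.73 (day 21). Every array of day 1 lay above every array of day 21, and the share of all probe sets that did so was not counted. The fitted change was -0.91 ± 0.18 SE, to 0.531 of the day 1 level (adjusted p = 0.000594). In air the group means went from 5.52 ± 0.52 (SD, n = 5) to 5.04 ± 0.40 (SD, n = 6), a change of -0.44 that did not pass (adjusted p = 0.138). The slopes were not shown to differ: the difference between arms, a comparison added after seeing the data, passed in no proteasome gene (0% of all probe sets), with 1 gene at an unadjusted p under 0.05 (5.71%).

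Psma6, which belongs to the alpha ring, had 8.36, 8.62, 8.31, 8.29 and 8.04 in exposed rats on day 1 and 7.12, 7.72 and 8.25 as lowest, median and highest on day 21. The 2 days overlapped through exposed replicate 5 of day 1 and replicate 6 of day 21. Means stayed between 8.10 and 8.33 until day 13 and were 7.74 and 7.68 on days 17 and 21 (change -0.65 ± 0.15 SE, adjusted p = 0.00284). Air rats went from 8.18 ± 0.20 (SD, n = 5) to 7.73 ± 0.15 (SD, n = 6), a change of -0.42 that did not pass (adjusted p = 0.0834).

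Psmb6, the subunit with caspase-like activity that Psmb9 replaces in immunoproteasomes, fell in air. It had 6.83, 6.52, 6.37, 6.74 and 6.40 on day 1, group means of 6.48, 6.36, 6.24 and 6.27 from day 5 to day 17, and a lowest, median and highest value of 5.63, 5.92 and 6.40 on day 21 (change -0.58 ± 0.13 SE, adjusted p = 0.00316). Only replicate 2 of day 21 reached the range of day 1. In exposed rats it had 6.26 ± 0.25 (SD, n = 5) on day 1 and 6.04 ± 0.22 (SD, n = 6) on day 21, a change of -0.28 that did not pass (adjusted p = 0.119).

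The copy Psmb6l1 fell in both arms. Air arrays had 7.90, 7.85, 7.20, 7.89 and 7.39 on day 1 and 6.88 to 7.42 on day 21 (change -0.51 ± 0.12 SE, adjusted p = 0.0073). Exposed arrays had 7.61, 7.93, 7.21, 7.69 and 7.13 on day 1 and 7.01 to 7.37 on day 21 (-0.43 ± 0.12 SE, adjusted p = 0.0129; 0.0578 without exposed day 1 replicate 2). In both arms 2 arrays of day 1 were as low as arrays of day 21.

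Psmd1 rose in exposed rats, from 6.25, 6.30, 6.24, 6.61 and 6.38 on day 1 to means of 6.79 and 6.80 on days 13 and 17 and a range of 6.44 to 6.84 on day 21 (0.38 ± 0.10 SE, adjusted p = 0.00764). Psmg2, a chaperone that helps alpha rings to form, had 3.71, 3.86, 3.09, 3.75 and 4.17 on day 1 and 3.74 to 4.63 with a median of 4.24 on day 21 (0.50 ± 0.16 SE, adjusted p = 0.0224). The days overlapped in both genes. Psmg2 lost its call without exposed day 1 replicate 3 (adjusted p = 0.0878), day 5 replicate 2 (0.0635) or day 21 replicate 2 (0.0523). Psmd14, the deubiquitinase of the 19S lid and outside the 6 genes of the naming rule, also passed (0.38 ± 0.13 SE, adjusted p = 0.0367). After cyclic loess scaling Psmd1, Psmg2 and Psmd14 kept positive changes of 0.17, 0.30 and 0.14 and none of them passed (adjusted p = 0.215, 0.256 and 0.565).

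Psma6-ps1, near background, came from 1.12, 1.81, 2.51, 2.66 and 1.28 on day 1 to 0.92, 1.04 and 1.54 as lowest, median and highest on day 21 in exposed rats (-0.48 ± 0.16 SE, adjusted p = 0.0335). Its call rested on single arrays, with an adjusted p of 0.118 without replicate 3 and of 0.165 without replicate 4 of day 1, and of 0.0517 to 0.063 without any one of day 5 replicate 5, day 17 replicate 1, day 21 replicate 3 or day 21 replicate 4. Without exposed day 1 replicate 3 the count of genes that passed in exposed rats dropped from 7 to 4. In air the count rose from 2 to 4 without day 17 replicate 3. In the arm difference Psma6-ps1 (-0.61, adjusted p = 0.825) and Psmb5 (0.40, adjusted p = 0.854) came first.

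A test for any difference among the 6 days, with no straight line assumed, passed 1 gene in air (1.81% of all probe sets) and 3 in exposed rats (4.71%). They were Psmb6 in air (adjusted p = 0.0298), and Psmd8 (0.0118), Psma6 (0.0245) and Psma6-ps1 (0.0294) in exposed rats. Psmb6 was lost without air day 1 replicate 1 or 4, or without air day 21 replicate 3, 4, 5 or 6 (adjusted p = 0.0579 to 0.102). Without exposed day 1 replicate 2 only 1 gene was left in exposed rats, Psma6 having an adjusted p of 0.0591 and Psma6-ps1 of 0.0618. Psma6 also missed the threshold without exposed day 21 replicate 3 (adjusted p = 0.0534), and Psma6-ps1 without exposed day 1 replicate 3 or 4 (0.144 and 0.193).

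Erythroid markers moved over the same days. The mean of the 3 measured erythroid genes had medians of 11.35 on day 1 and 10.70 on day 21 in air and of 11.22 and 10.48 in exposed rats. Both tested genes of that list fell in both arms, with median changes of -0.78 in air and -1.003 in exposed rats. In exposed rats 6 of 8 T cell, 3 of 5 NK cell and 2 of 6 monocyte genes passed as higher. The list medians were 0.46, 0.65 and 0.51, and every gene of these lists was higher. Of 7 neutrophil genes 1 passed as lower (median -0.04), with 2 higher and 5 lower in all. Of all probe sets 8.82% passed as higher and 6.41% as lower. In air every T cell, NK cell and monocyte gene was also higher, with medians of 0.18, 0.27 and 0.33, and none passed. With the erythroid mean of each array as a covariate, an alternative added after seeing the data, no proteasome gene passed in either arm. Psmd8 then changed by -0.50 (adjusted p = 0.614), Psma6 by -0.28 (adjusted p = 0.765) and Psmb6 in air by -0.39 (adjusted p = 0.483). Not every change became smaller. In exposed rats Psma6-ps1 went from -0.48 to -0.69 (adjusted p = 0.404 in limma) and Psmg2 from 0.50 to 0.42 (adjusted p = 0.64), and both lost their calls. The covariate itself fell with the day in both arms, and its part in the changes was not tested. In the same fits only 8 probe sets of all passed in air and 4 in exposed rats. The lower quartile of intensity, a measure of the dim end of an array, had medians of 1.53 on day 1 and 1.44 on day 21 in air and of 1.56 and 1.46 in exposed rats. With it as a covariate 1 gene passed in air, beside 214 of all probe sets. In exposed rats 0 genes passed, beside 67 of all probe sets. Psmb6l1 in air then changed by -0.45 and lost its call (adjusted p = 0.1 in limma).

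The relation to these markers was then measured over the 69 arrays, after the mean of each group was taken away, so that differences between groups do not enter. The 43 genes and 2 measures, the erythroid mean and the lower quartile, gave 86 relations, a choice made after seeing the data, with permutation p-values from 100000 shuffles within groups adjusted over all of them. With the erythroid mean, 6 genes had a positive and 11 a negative r at an adjusted p under 0.05. The positive genes were Psmf1, Psme4, Psma6, Psmd8, Psmb6l1 and Psmb3l2, and the most negative were Psmb10, Psma7 and Psmc1. Genes outside this set were not measured against the erythroid mean, so no share of all probe sets stands beside these counts.

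**Figure D3:**
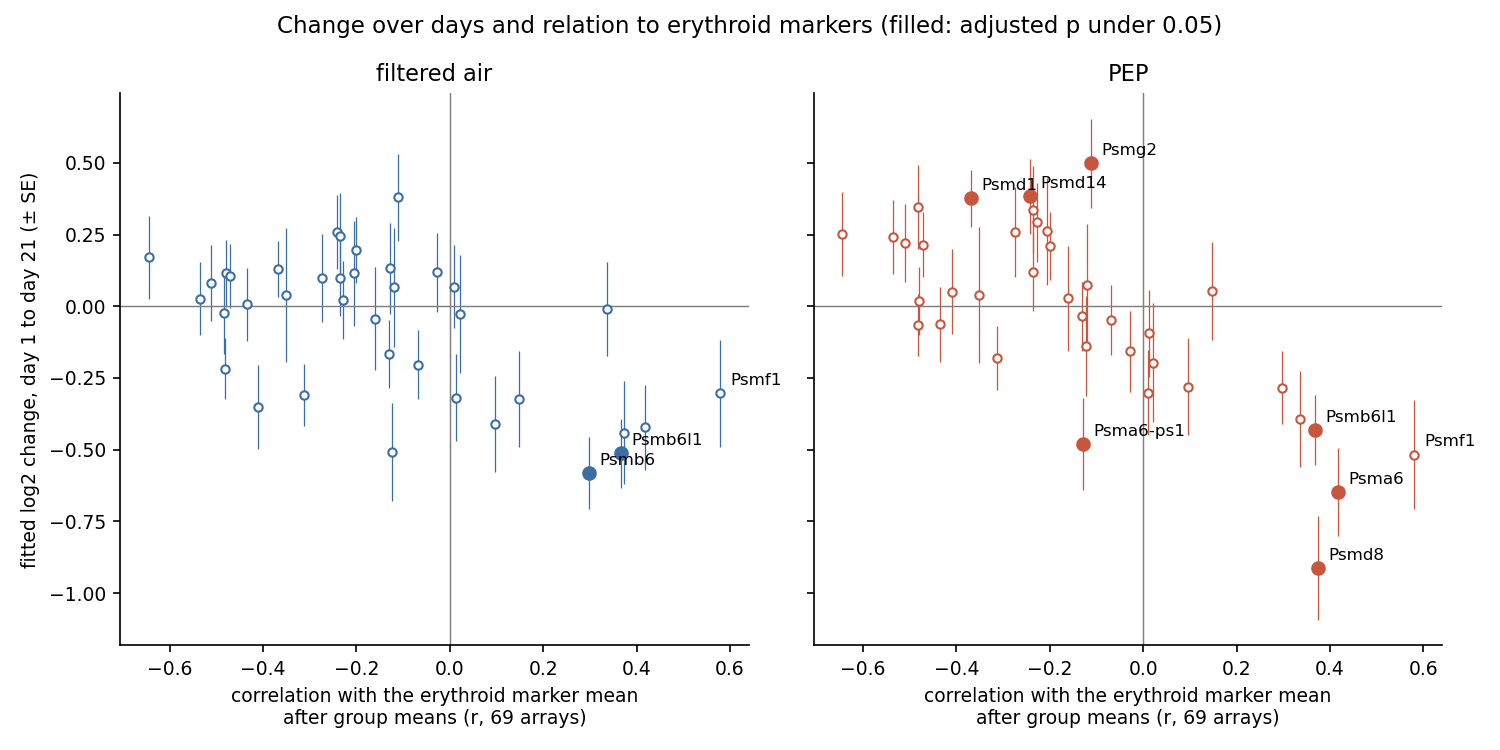
Fitted log2 change from day 1 to day 21 with its SE (vertical axis) against the correlation of each of 38 genes with the erythroid marker mean over 69 arrays after group means were removed (horizontal axis), for air (left) and exposed rats (right); filled points have an adjusted p under 0.05. Of the 11 tested genes right of 0, such as Psmf1 at 0.579 and Psma6 at 0.418, 10 lie below 0 on the vertical axis in each panel, and in the exposed panel Psma6-ps1 is the 1 filled point below 0 on the vertical axis with a negative r.

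Psmf1 had the highest coefficient of the 43 genes (n = 69, r = 0.579, permutation adjusted p = 0.000369, rho = 0.577, adjusted p = 0.000258), and r was 0.576 without the 2 outermost arrays. For Psma6 they were r = 0.418 (adjusted p = 0.0101) and rho = 0.403 (adjusted p = 0.00912), with r = 0.415 without those arrays. Psmd8 had r = 0.374 (adjusted p = 0.00837), rho = 0.393 (adjusted p = 0.00786) and 0.384 without them. For Psmb6 r was 0.298 (adjusted p = 0.0575), rho 0.383 (adjusted p = 0.00923) and r without those arrays 0.331. At the other end stood the immunoproteasome subunit Psmb10, with r = -0.644 and rho = -0.607 (permutation adjusted p = 0.000191 for either) and r = -0.606 without the 2 arrays. The points share normalisation and the composition of each blood sample.

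With the lower quartile, 19 of the 43 genes had a negative and 2 a positive r at an adjusted p under 0.05. Psmb2 had r = -0.802 and rho = -0.668 (n = 69, permutation adjusted p = 0.000143 for either, the smallest reached, and r = -0.71 without the 2 outermost arrays). The 19S subunit Psmd6 followed with r = -0.784 and rho = -0.67 (adjusted p = 0.000143 for either, r = -0.725 without them). Psmd8 was positive, with r = 0.416 (permutation adjusted p = 0.00792), rho = 0.402 (adjusted p = 0.00651) and 0.298 without them. In all 30 of the 43 genes had a negative r. Other genes were not measured against the lower quartile, so these counts are not shown to be particular to proteasome genes. The 4 arrays of weight under 0.5 had the highest lower quartiles of the 69, from 1.74 to 1.80. Array weights did not enter these relations or the covariation below, and the check above left out only 2 arrays.

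Covariation between the genes was described over the same residuals, without a test, since pairs share arrays and normalisation. The 13 genes of the 20S rings had a median r of 0.305 over 78 pairs, the 14 genes of the 19S ATPases and non-ATPase subunits 0.179 over 91 pairs, and pairs across the 2 parts 0.238 over 182. The median over all tested genes with 1 symbol was -0.0025, and it was 0.178 over the 4016 of them with a mean of at least 5, as 24 of the 27 subunits had. The 19S pairs thus lay at the median of genes of that level, and the 20S pairs above it. The closest pair was Psma1 and Psmd1 (r = 0.794), followed by Psma1 and Psma4 (0.777) and Psma1 and Psmb2 (0.751).

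**Figure D4:**
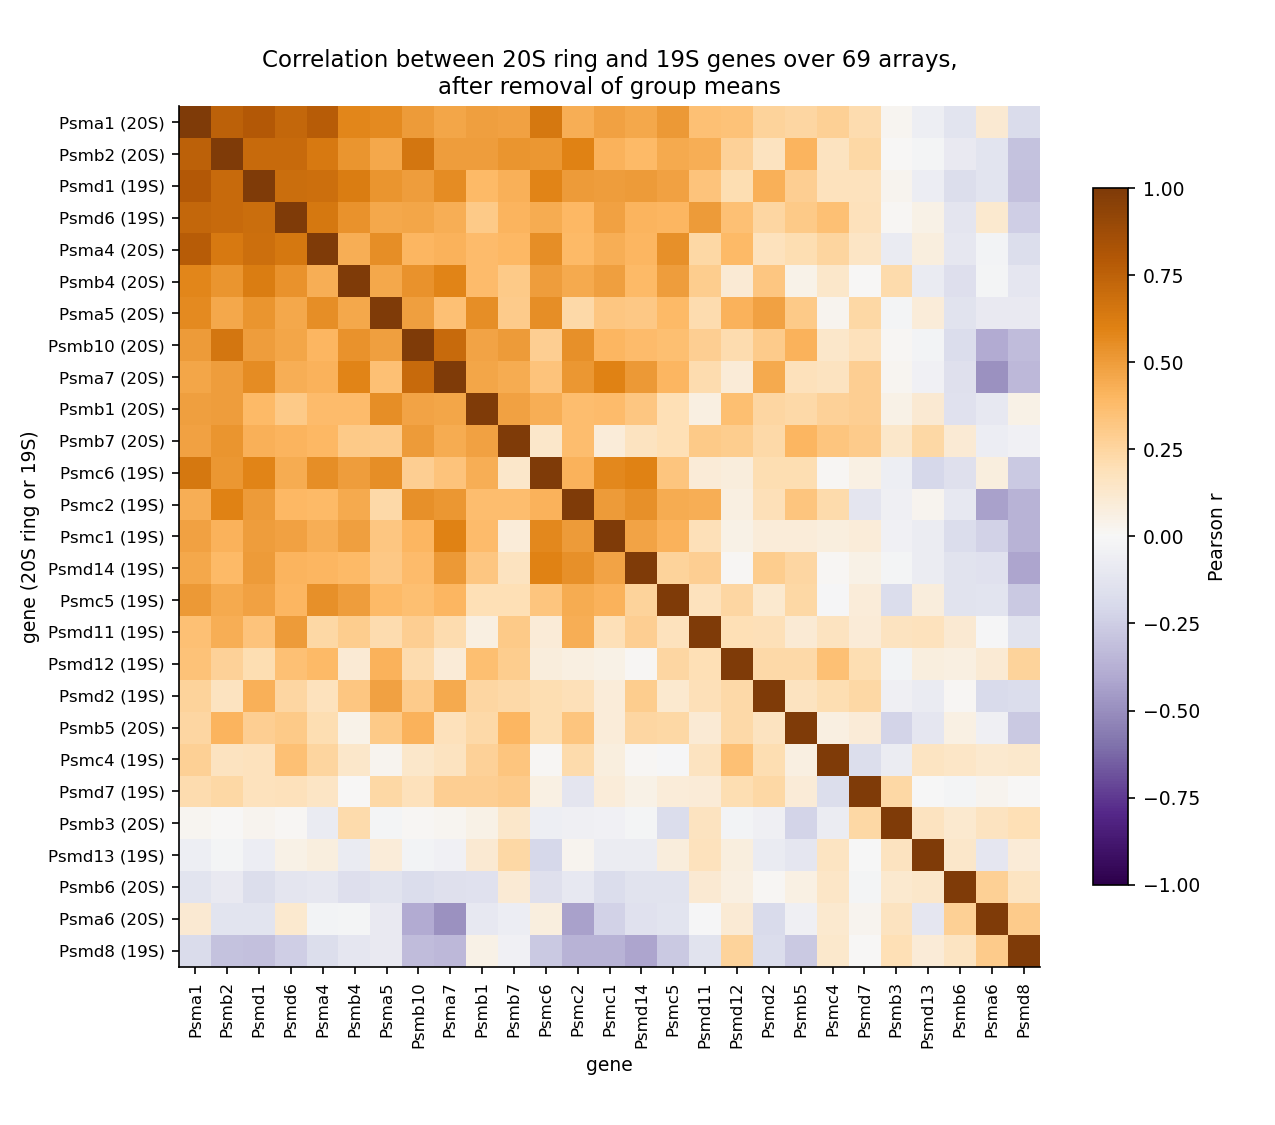
Pearson r between 13 genes of the 20S rings and 14 genes of the 19S cap over 69 arrays after group means were removed, ordered by their mean r with the other 26; brown is positive and purple negative. A block of positive r from Psma1 (mean 0.39) downward is followed at the bottom by Psmb6 (-0.04), Psma6 (-0.05) and Psmd8 (-0.12).

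Not all subunits went along with this block. Psma1 had the highest mean r with the other 26 genes (0.39), and Psmb2, Psmd1 and Psmd6 followed with 0.37, 0.36 and 0.36. Psmb6, Psma6 and Psmd8 had means of -0.04, -0.05 and -0.12, the lowest of the 27, although each is a part of every standard proteasome. Psmd13 (0.02) and Psmb3 (0.03) stood just above these genes. In the line over days Psmb6 passed in air, and Psma6 and Psmd8 in exposed rats. Psmb6 went instead with its copy Psmb6l1 (r = 0.69), and Psmb6l1 with the inhibitor Psmf1 (0.59). With the lower quartile of the array, Psma1, Psmb2, Psmd1 and Psmd6 had r of -0.778, -0.802, -0.749 and -0.784 over the same residuals. Psmb6, Psma6 and Psmd8 had 0.0955, 0.181 and 0.416. The part of the lower quartile in the covariation was not tested.

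Rats with a telemetry implant were then compared with the other rats of day 21 in the same arm. In air none of the 38 genes passed (0.468% of all probe sets did), 4 had an unadjusted p under 0.05 (9.52%), and the median was 0.01. Psma6 had 8.46, 8.15, 8.52 and 8.05 with an implant against 7.52, 7.74 and 7.90 as lowest, median and highest without (0.57 ± 0.17 SE, adjusted p = 0.126). Every implanted rat lay above every other, as in 0.966% of all probe sets. Psmb6 had 6.30, 6.55, 6.49 and 6.11 against 5.63, 5.92 and 6.40 (0.44 ± 0.14 SE, adjusted p = 0.176), with overlap.

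In exposed rats 30 of the 38 genes were higher with an implant (48.9% of all probe sets), the median was 0.17, and 10 genes, all higher, had an unadjusted p under 0.05 (11.9% of all probe sets in either direction, 6.01% higher). None passed at an adjusted p of 0.05, beside 1.22% of all. All 5 alpha ring and all 7 beta ring genes were higher, with medians of 0.26 and 0.29, as were all 5 ATPases (0.20). Psmb2 had 7.41, 7.47, 7.46 and 7.40 against 6.79, 6.93 and 7.35 (0.44 ± 0.13 SE, adjusted p = 0.0624), with no overlap, as in Psmb7 and 1.55% of all probe sets. Psma6 had 8.12, 8.12, 8.55 and 8.13 against 7.12, 7.72 and 8.25 (0.55 ± 0.16 SE, adjusted p = 0.0671). Psmb2 passed without exposed day 21 replicate 3 (0.51, adjusted p = 0.0254) and Psma6 without exposed day 21 replicate 6 (0.63, adjusted p = 0.0299).

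**Figure D5:**
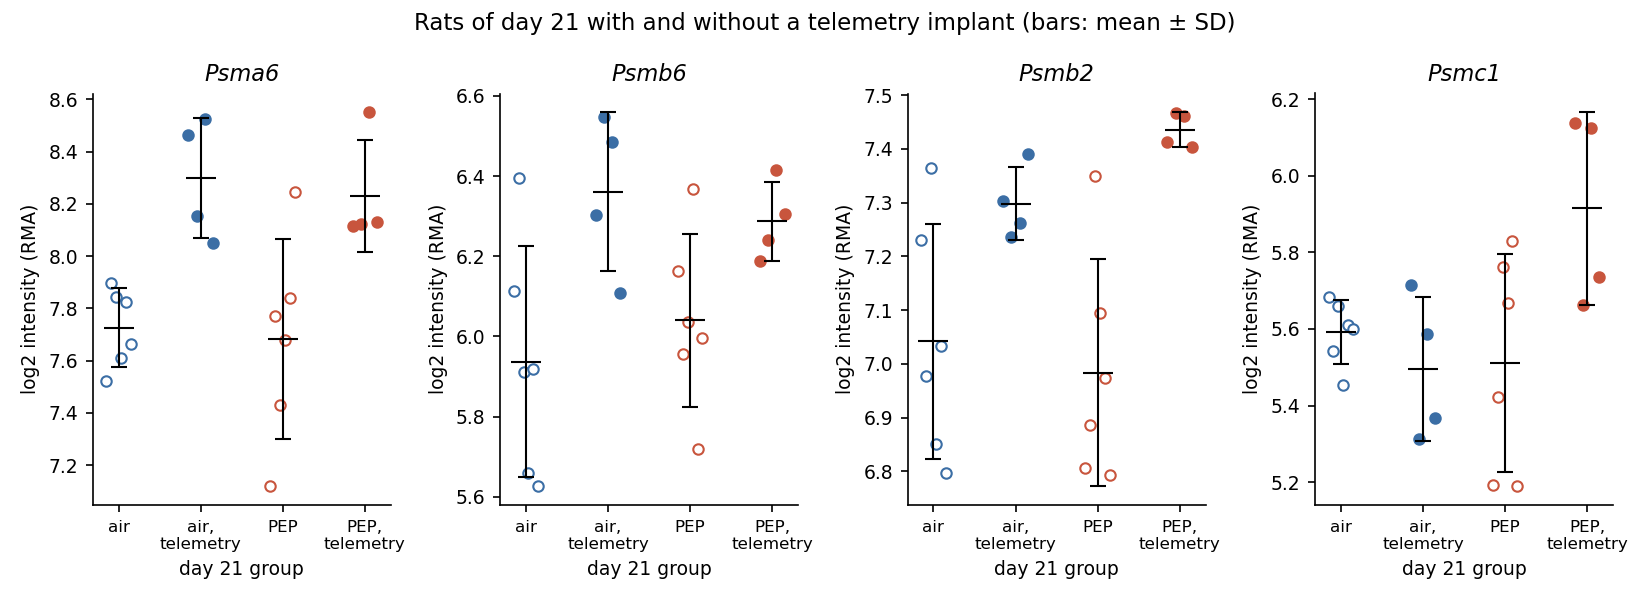
Log2 intensity of 4 genes in the 4 groups of day 21, air (blue) and PEPs (red), with filled points for rats with a telemetry implant; bars are the mean and SD of 6 rats without and 4 rats with an implant. Psma6 is higher with an implant in both arms (8.30 against 7.73 in air, 8.23 against 7.68 in exposed rats), and Psmc1 is highest in exposed implanted rats.

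Markers of other cells also moved with the implant in exposed rats. Of the NK cell list 4 of 5 genes passed as higher (median 0.94) and of the monocyte list 3 of 6 (median 0.72). Every gene of both lists was higher, and 1.22% of all probe sets passed in either direction. The 2 tested erythroid genes had a median of 0.42 and did not pass. Of the neutrophil list 6 of 7 genes were higher (median 0.44). Of the T cell, platelet and B cell lists 6 of 8, 3 of 5 and 2 of 3 were lower, and none of these 4 lists had a call. In air 4 of 5 NK cell and 5 of 6 monocyte genes were higher with an implant (medians 0.46 and 0.29), and none passed. There 1 of 8 T cell genes passed as lower, beside 0.468% of all probe sets in either direction. The part of these markers in the proteasome values was not tested. The exposure effect was not shown to differ with the implant in any gene (0% of all probe sets), with 2 of the 38 at an unadjusted p under 0.05 (5.26%). Psmc1 (0.50 ± 0.21 SE, adjusted p = 0.862) and Psmb4 (0.41 ± 0.20 SE, adjusted p = 0.934) came first.

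Other genes of the pathway were counted from a list of 30, of which 21 were measured and 15 tested. None passed in an exposure or telemetry comparison. Over days 3 of the 15 passed as lower in air (2.33% of all probe sets did). In exposed rats 2 passed as lower and 4 as higher (6.41% and 8.82% of all). Ubqln4, a shuttle that carries ubiquitinated proteins to the proteasome, fell by 0.73 in air (adjusted p = 0.00368) and by 0.90 in exposed rats (adjusted p = 0.000181). Fbxo7, a ubiquitin ligase subunit that binds Psmf1, fell by 0.72 (adjusted p = 0.0252) and 0.67 (adjusted p = 0.0187). Pomp, the chaperone of core maturation, fell by 0.42 in air (adjusted p = 0.0262).

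Among the genes that rose in exposed rats, Usp14, a deubiquitinase bound to the 19S cap, changed by 0.59 (adjusted p = 0.000402). Ngly1, which processes Nfe2l1 to its active form, changed by 0.50 (adjusted p = 0.00381), Nfe2l2 itself by 0.51 (adjusted p = 0.015) and the ubiquitin-activating enzyme Uba6 by 0.38 (adjusted p = 0.0153). The immunoproteasome genes Psmb8 and Psmb9 changed by 0.35 (adjusted p = 0.0946) and 0.13 (adjusted p = 0.661) and did not pass, and Psmb10 of the same complex changed by 0.25 without passing. The pathway list was read from the main fit alone and was not followed through the alternatives. Among the proteasome genes, the 3 rises in exposed rats all lost their calls after cyclic loess. With the lower quartile as a covariate only 67 of all probe sets passed there, and 4 with the erythroid mean.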

How the data were processed

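Whole-blood RNA was measured on 69 single-colour arrays, 1 rat each. Per the submitters' processing notes, the authors made the deposited log2 values with oligo, RMA and limma in R 3.4, and no array was left out here. Probe sets with a variance of at least 0.05 over all arrays were tested (34176) in limma 3.58.1 under R 4.3.3, with array weights, 1 mean per group over all 14 groups, empirical Bayes moderation and Benjamini-Hochberg adjustment over all tested probe sets. Except for the relations to the erythroid mean and the lower quartile, adjusted p-values in the report are from this limma fit. They measure the spread between rats as sampled. For those relations the adjusted p-values are from permutations within groups. The line over days is a contrast of the 6 group means of an arm.

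The proteasome genes, the marker and pathway lists and the tests were chosen with earlier results of these data known. Named in full were up to 6 genes that passed per comparison, smallest p first, or the 2 of smallest p where none passed. The difference of slopes, the erythroid covariate and the relations to erythroid markers and to the lower quartile were chosen after seeing the data.

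Background correction and quantile scaling in RMA compress low intensities and set all arrays to one distribution, so a change is relative to the rest of the array. A globin depletion step is not given in the sources used here. The number of arrays limits the precision. The fit was tested on simulated data, where in the line over exposed rats 22% of 1.5-fold and 72% of 2-fold changes were found (50 probe sets each). In the telemetry comparison of exposed rats these shares were 8% and 52%, and in the exposure comparison of day 21 they were 18% and 62%. The simulated noise was independent between probe sets and of equal spread on all arrays. Few probe sets were changed, while 5208 of 34176 passed in the line over exposed rats. The shares therefore describe the simulated setting and not the sensitivity in these data. Alternatives were no array weights, no variance filter, a level filter, an intensity trend, the compared arrays alone, cyclic loess, a replicate block, covariates, the mean over probe sets and leaving out arrays.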

Additional observations from a re-analysis of the deposited data

Results flagged for a closer look

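Of 107 groups of 4 to 6 arrays tested for a single array far from the others by Dixon's criterion, 11 stood out, and chance gives about 1 in 20. In exposed rats they were Psma4 on day 13 in replicate 1 (5.99, others 6.50 to 6.70), Psma6-ps1 on day 13 in replicate 5 (0.595, others 1.08 to 1.21), Psmb5 on day 17 in replicate 1 (4.25, others 4.35 to 4.39), Psmd8 on day 5 in replicate 3 (5.11, others 5.53 to 5.68) and Psma6 with an implant in replicate 3 (8.55, others 8.12 to 8.13). In air Psmc5 was low on day 9 in replicate 1 (3.70, others 4.58 to 4.89).

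Averages over the subunits also stood out on single arrays. The mean of 13 genes of the 20S rings was 6.03 in air day 1 replicate 2 (others 6.31 to 6.39). The mean of 14 genes of the 19S cap was 5.77 on the same array (others 6.17 to 6.21), 6.17 in air day 9 replicate 4 (others 5.87 to 5.96), 5.92 in air day 17 replicate 2 (others 6.17 to 6.18) and 5.89 in exposed day 1 replicate 5 (others 6.08 to 6.16). Of these arrays, air day 1 replicate 2 and exposed day 1 replicate 5 also had weights under 0.5.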

How the results depend on the processing

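In exposure comparisons no proteasome gene passed under any alternative, and no call turned its direction in any comparison. The changes over days were less stable. The day test in air fell from 1 gene to 0 without array weights, in a fit of the compared arrays alone, with a replicate block and with the lower quartile as a covariate, and in exposed rats from 3 to 1, 1 and 0 under the first, second and last of these. Of all probe sets 342, 208, 654 and 46 passed in these fits in air, in that order, and 936, 586 and 33 in exposed rats. The line in air gave 4 genes without the variance filter and 4 after cyclic loess, 1 with the lower quartile and 0 with the erythroid mean as covariate. Of all probe sets 1828, 1112, 214 and 8 passed in these fits, in that order. In exposed rats both covariates left 0 of 7, beside 67 of all probe sets with the lower quartile and 4 with the erythroid mean. Without the variance filter Psme4 (-0.38, adjusted p = 0.00671 in limma) and Psmd13 (-0.34, adjusted p = 0.00978) were the added genes in air, and Psme4 also passed in exposed rats (-0.30, adjusted p = 0.021).

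The median change over days was 0.01 in air and 0.02 in exposed rats. It became -0.10 and -0.14 after cyclic loess, -0.18 and -0.17 with the lower quartile, and -0.17 and -0.14 with the erythroid mean, and that of the arm difference went from 0.11 to -0.0158 with the lower quartile. The cause was not tested. In exposed rats with an implant 2 genes passed among probe sets above the median level, Psmb2 and Psma6, and 1 gene passed after cyclic loess, with the replicate block, with the lower quartile and without the 4 arrays of low weight. Of all probe sets 669, 495, 284, 545 and 447 passed in these fits, in that order, beside 418 in the main fit.

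Leaving out 1 array at a time gave 0 to 1 genes in the day test in air, 1 to 4 in exposed rats, 2 to 4 for the line in air, 4 to 8 in exposed rats and 0 to 1 for the implant in exposed rats. Psmd8, Psma6 and Psmd1 in exposed rats kept their calls over days in every such fit of the line. Replicate numbers are shared by the groups, but residuals of same-numbered arrays had r of -0.0762 to 0.249 over 34 pairs of an air and an exposed array of the same day and number, 1 of them above 0.1, so that the numbers were not taken as pairs. With the replicate block the other counts stayed within 1.5 times.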
